A study of Mus musculus with 27 samples.

Results

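The proteins of the mitochondrial ribosome were examined as a gene set in mouse splenic B cells that had been stimulated for 3 h with or without disulfiram (DSF). The members were the protein-coding genes whose symbol is Mrpl or Mrps followed by a number and at most 1 letter, which gave 78 of the 54532 genes in the deposited table. By their names and known places in the particle, 51 belong to the large subunit (30 with a bacterial homologue and 21 specific to mitochondria), 26 belong to the small subunit (16 and 10), and Mrps36, despite its symbol, is known as a subunit of the oxoglutarate dehydrogenase complex. All cells came from the spleens of wild-type C57BL6 mice and were enriched for B cells by negative selection. The age of the mice was not given in the sources used here. In the first experiment, 5 groups of 4 libraries each were sequenced. B cells were left unstimulated with the vehicle DMSO, stimulated with lipopolysaccharide (LPS) with DMSO, stimulated with IL-4+anti-CD40 with DMSO, or given either stimulus with 1 µM DSF. LPS is a bacterial product that activates B cells without T cell help through a Toll-like receptor, and IL-4 with an antibody to CD40 stands in for T cell help. DSF is a drug used against alcohol dependence that inhibits aldehyde dehydrogenase. In the second experiment, the same 5 conditions and the 2 stimuli with 1 µM ibrutinib, an inhibitor of Bruton's tyrosine kinase, were sequenced once each. No unstimulated cells with DSF were in the data used here, so that the effect of DSF could be measured only in stimulated cells.

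The mitochondrial ribosome translates the few messenger RNAs that mitochondrial DNA encodes, all of them for core subunits of the respiratory chain complexes and the ATP synthase. Its ribosomal RNAs are made in the mitochondrion, but every one of its proteins is encoded in the nucleus, translated in the cytosol and imported. The particle descends from a bacterial ribosome, and it has gained many proteins with no bacterial counterpart. B cells that leave rest enlarge and build up mitochondria, and the genes of this machinery are widely expressed housekeeping genes whose promoters commonly carry sites for ETS factors, NRF1 and YY1.

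Each library of the first experiment held 17804851 to 23632992 counts, and each of the second held 16049295 to 24619776. The 7 B cell markers, Cd79a, Cd79b, Ms4a1, Pax5, Cd22, Cr2 and Blk, summed to 2576 to 8427 CPM (counts relative to library size, scaled by the trimmed mean of M-values, TMM) in every library of the first experiment, whereas the 8 T cell markers summed to 5.46 to 16.96 CPM and the 8 NK cell markers to 3.43 to 12.1 CPM. The unstimulated libraries stood apart from each other. In libraries 1 and 2 the B cell markers summed to 4561 and 4509 CPM and the 8 neutrophil markers to 68.8 and 69.4 CPM, against 8427 and 8227 CPM and 16.8 and 21.2 CPM in libraries 3 and 4. The 8 erythroid markers summed to 3.64 and 2.90 CPM in libraries 1 and 2 and to 27.45 and 26.9 CPM in libraries 3 and 4. The 8 myeloid markers summed to 517 to 661 CPM in unstimulated cells, 115 to 130 CPM with LPS and 166 to 193 CPM with IL-4+anti-CD40, and their part in the results on stimulation was not tested. With 1 exception per list, Ly6g in cells with IL-4+anti-CD40+DSF and Ncr1 in cells with LPS, no marker was at 0 in all libraries of a group. The labels number the replicates but do not say whether they came from separate mice, so that p-values measure only the spread between these libraries. In bulk RNA, fewer cells of a type and less RNA per cell cannot be told apart.

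In unstimulated B cells the members spanned a wide range of levels per listed gene length. Mrpl34, the counterpart of bacterial L34, had the highest level at 40.0 ± 3.73 FPKM (fragments scaled to listed gene length and library size, mean ± SD, n = 4), with libraries between 36.9 and 44.7 FPKM. Mrpl43, specific to mitochondria, followed at 38.4 ± 2.04 FPKM, Mrps21 at 37.3 ± 2.68 FPKM and Mrpl54 at 34.0 ± 2.14 FPKM. The ranges of Mrpl34, Mrpl43 and Mrps21 overlapped, so that their order was within the spread between libraries. Mrpl52 came next at 30.6 ± 5.57 FPKM, with libraries between 25.7 and 36.9 FPKM. At the other end, Mrps6 had 2.93 ± 0.82 FPKM, Mrps35 2.72 ± 0.17 FPKM, Mrpl33 2.36 ± 0.18 FPKM and Mrps25 1.83 ± 0.07 FPKM. This order depends on the listed length. Mrpl34, listed with 607 bp, had 22.8 to 27.2 CPM, and Mrps35, listed with 8631 bp, had 21.5 to 25.03 CPM in the same libraries. The median member had 10.6 FPKM in unstimulated cells, 12.6 FPKM with LPS and 14.6 FPKM with IL-4+anti-CD40, against 9.08 FPKM with LPS+DSF and 10.2 FPKM with IL-4+anti-CD40+DSF. The median coefficient of variation of the members was 5.08% to 8.65% across the 5 groups. This median does not show the split of unstimulated libraries 1 and 2 from 3 and 4 given above.

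Mrpl53 was the only member listed at 0 in all 27 libraries, and the limit that a count of 0 allows, 3 counts, equals 0.122 to 0.187 unscaled CPM over both experiments, for counting error only. In the GENCODE vM21 annotation 88.0% of its exonic bases also lie in Gm42688, a gene on the same strand, and the part of this overlap in its count was not tested. It was the only member that did not pass the filter on low counts, and 77 members were tested in every comparison. In the same annotation 33 of the 78 members (42.3%) share exonic bases with another gene, 8 of them on the same strand and 28 on the opposite strand. The strand setting of the library and of the counting was not given in the sources used here, so that reads of a member and of its overlapping partner cannot be told apart. Mrps25 shares 69.8% of its exonic bases with Nr2c2 on the opposite strand, Mrps34 63.4% with Mapk8ip3, Mrpl19 36.0% with Gcfc2 and Mrpl43 33.4% with Twnk. Mrps34 also shares 37.0% with Nme3 on the same strand. Mrps11 and Mrpl46, a small and a large subunit gene, lie head to head and share 173 bases. A protein-coding start on the opposite strand within 1000 bp was found for 33 of 78 members (42.3%), with a distance of 26 to 935 bp and a median of 128 bp, and for 2384 of 21951 protein-coding genes (10.9%). The most members on 1 chromosome are the 11 on chromosome 11.

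The promoters of 6 members are shown because these genes carry the main patterns: Mrpl17 and Mrps18b rose with both stimuli, Mrpl42 and Mrpl36 fell with DSF, Mrpl49 fell with the stimuli and again with DSF, and Mrps7 rose with the stimuli and with DSF. Each sequence runs 5′ to 3′ on the strand of the gene, from 250 bases before to 50 bases after the RefSeq transcription start in GRCm38.p6, and capitals mark the motif matches. The windows are chr7:105811038-105811337 (minus strand), chr17:35916391-35916690 (minus strand), chr10:95501900-95502199 (minus strand), chr13:73330759-73331058 (plus strand), chr19:6057706-6058005 (minus strand) and chr11:115603890-115604189 (plus strand).
Mrpl17: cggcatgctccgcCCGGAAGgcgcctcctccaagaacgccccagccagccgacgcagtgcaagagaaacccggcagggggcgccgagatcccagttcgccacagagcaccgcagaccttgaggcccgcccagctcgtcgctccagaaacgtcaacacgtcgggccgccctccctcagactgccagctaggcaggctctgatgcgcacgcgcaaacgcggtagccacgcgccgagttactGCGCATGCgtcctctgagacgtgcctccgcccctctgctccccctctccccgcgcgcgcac
Mrps18b: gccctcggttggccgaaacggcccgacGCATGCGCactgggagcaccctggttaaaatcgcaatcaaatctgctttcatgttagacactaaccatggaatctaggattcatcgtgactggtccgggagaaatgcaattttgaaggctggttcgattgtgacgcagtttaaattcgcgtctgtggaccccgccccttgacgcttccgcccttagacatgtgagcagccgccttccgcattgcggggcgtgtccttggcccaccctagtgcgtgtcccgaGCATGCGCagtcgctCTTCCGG
Mrpl42: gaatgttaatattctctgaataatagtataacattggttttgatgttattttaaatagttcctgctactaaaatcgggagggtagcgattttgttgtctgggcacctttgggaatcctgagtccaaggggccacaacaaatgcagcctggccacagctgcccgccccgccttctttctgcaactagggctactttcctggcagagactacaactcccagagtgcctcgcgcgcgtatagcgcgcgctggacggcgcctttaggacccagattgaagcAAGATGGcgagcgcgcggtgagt
Mrpl36: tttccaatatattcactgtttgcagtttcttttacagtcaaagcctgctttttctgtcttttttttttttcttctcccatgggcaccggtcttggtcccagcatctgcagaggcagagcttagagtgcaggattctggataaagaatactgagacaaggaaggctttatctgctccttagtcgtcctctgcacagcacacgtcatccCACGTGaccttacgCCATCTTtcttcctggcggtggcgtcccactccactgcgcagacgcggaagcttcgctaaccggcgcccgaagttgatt
Mrpl49: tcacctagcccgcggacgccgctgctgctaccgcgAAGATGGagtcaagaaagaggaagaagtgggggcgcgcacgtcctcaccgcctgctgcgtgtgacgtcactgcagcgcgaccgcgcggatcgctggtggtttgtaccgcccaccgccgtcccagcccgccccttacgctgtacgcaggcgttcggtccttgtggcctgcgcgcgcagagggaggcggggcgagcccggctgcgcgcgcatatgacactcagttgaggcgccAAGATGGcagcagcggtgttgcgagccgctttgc
Mrps7: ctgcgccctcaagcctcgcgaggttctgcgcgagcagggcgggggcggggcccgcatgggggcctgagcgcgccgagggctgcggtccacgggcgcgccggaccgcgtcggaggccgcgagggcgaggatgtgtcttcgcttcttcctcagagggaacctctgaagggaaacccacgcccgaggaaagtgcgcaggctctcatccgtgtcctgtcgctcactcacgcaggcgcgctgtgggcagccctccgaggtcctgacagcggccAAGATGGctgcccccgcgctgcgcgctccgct
The letters searched, on both strands, were CCGGAAG (an ETS core), GCATGCGC (an NRF1 core), AAGATGG (a YY1 core) and CACGTG (an E-box, as bound by Myc). Mrpl17 holds an ETS and an NRF1 match, Mrps18b 2 NRF1 matches and an ETS match, Mrpl42 and Mrps7 a YY1 match each after the start, Mrpl36 an E-box and a YY1 match, and Mrpl49 2 YY1 matches. The Mrpl36 window lies wholly after the listed gene start, chr13:73328513, and does not cover the listed 5′ end. RefSeq windows were found for 69 members, with 75 windows in all. The ETS letters were in 34.7% of these windows, in 18.0% of the windows of the protein-coding genes tested and in 8.86% of all 32851 windows. The NRF1 letters were in 10.7%, 5.33% and 2.71%, the YY1 letters in 17.3%, 7.30% and 6.34%, and the E-box letters in 9.33%, 9.87% and 7.15%. A match is a run of letters and not a measured binding site.

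Summed over the members, messenger RNA for the mitochondrial ribosome was higher in stimulated cells and lower again with DSF. In unstimulated libraries 1 to 4 the sum was 2103, 2027, 1991 and 2078 CPM. With LPS it was 2763, 2816, 2851 and 2738 CPM, and with LPS+DSF it was 1966, 2108, 2089 and 2185 CPM. All LPS libraries lay above all unstimulated and all LPS+DSF libraries, and the latter 2 groups overlapped. With IL-4+anti-CD40 the sum was 3038, 3007, 2642 and 2643 CPM, and with IL-4+anti-CD40+DSF it was 2275, 2195, 2422 and 2307 CPM. Libraries 1 and 2 with IL-4+anti-CD40 lay apart from libraries 3 and 4, and all 4 lay above the unstimulated libraries and those with DSF. The ratio of large to small subunit messenger RNA was 2.25 to 2.34 in unstimulated cells, 2.50 to 2.54 with LPS, 2.33 to 2.52 with LPS+DSF, 2.25 to 2.29 with IL-4+anti-CD40 and 2.17 to 2.22 with IL-4+anti-CD40+DSF. As a share of all counts, with no scaling between libraries, the members made up 0.223% to 0.248% in unstimulated cells, 0.271% to 0.281% with LPS, 0.175% to 0.184% with LPS+DSF, 0.283% to 0.333% with IL-4+anti-CD40 and 0.209% to 0.223% with IL-4+anti-CD40+DSF.

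**Figure D1:**
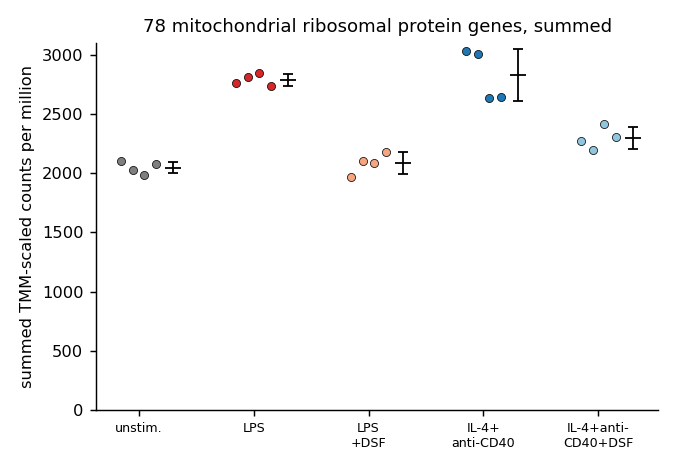
Summed level of the 78 mitochondrial ribosomal protein genes (y axis, TMM-scaled CPM) in each library of the 5 groups of the first experiment (x axis); points are libraries and bars are means ± SD. The LPS libraries sit between 2738 and 2851 CPM and the LPS+DSF libraries between 1966 and 2185 CPM.

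LPS raised most of the set. Of the 77 members tested, 46 were higher with LPS and 9 were lower (edgeR, adjusted p under 0.05), against 29.6% of all 14477 genes tested that were called higher and 33.3% called lower. Changes given as a value ± SE are log2 fold changes. The median log2 fold change was 0.39 for the members and -0.05 for all genes. With libraries scaled by total counts in place of TMM, 34 members were higher and 16 lower. Over the 8 comparisons, scaling by total counts moved the median of all genes by -0.41 to -0.05 on the log2 scale. The LPS median of the members relative to that of all genes was 0.44 under either scaling. A change of scaling shifts all genes nearly alike, so this relative value could not test the choice of scaling. Of the large subunit proteins with a bacterial homologue, 23 of 30 were higher and 4 lower, with a median of 0.42. Of those specific to mitochondria, 10 of 20 were higher and 2 lower, with a median of 0.28. In the small subunit the counts were 8 higher and 1 lower of 16 with a bacterial homologue, and 5 higher and 2 lower of 10 specific to mitochondria. Every LPS library lay above every unstimulated library for 47 members and below for 9, against 29.5% and 31.4% of all genes tested.

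Among the members that rose, Mrpl17, the counterpart of bacterial L17 at the exit of the peptide tunnel, had 30.2, 31.9, 28.0 and 27.7 CPM in unstimulated libraries and 77.5, 80.8, 80.8 and 81.5 CPM with LPS. The groups did not overlap, and the level was 2.73-fold higher (log2 fold change 1.45 ± 0.06, edgeR adjusted p = 4.19e-07). Mrpl12, which forms the flexible stalk that recruits translation factors and also binds the mitochondrial RNA polymerase, had 28.7, 28.1, 24.9 and 24.9 CPM before and 56.0, 55.2, 60.5 and 60.6 CPM with LPS (log2 fold change 1.13 ± 0.07, edgeR adjusted p = 3.36e-06). All 4 LPS libraries were again above all unstimulated ones. Mrps18b, a small subunit protein specific to mitochondria, had 20.1, 21.6, 13.05 and 13.6 CPM and then 36.4, 37.5, 36.0 and 37.2 CPM (log2 fold change 1.11 ± 0.16, edgeR adjusted p = 0.000411). The groups did not overlap, although the unstimulated libraries themselves fell apart, with libraries 1 and 2 above 3 and 4. Its gene shares 30.5% of its exonic bases with the antisense gene Gm16279. Mrpl19, Mrps2, Mrpl50, Mrpl15 and Mrpl39 also rose, with log2 fold changes of 1.02 ± 0.06, 1.02 ± 0.06, 0.99 ± 0.08, 0.91 ± 0.09 and 0.89 ± 0.07. Mrps2 is the counterpart of bacterial S2, and Mrpl15 and Mrpl19 are those of bacterial L15 and L19. Mrpl10 and Mrpl11, which form the base of the stalk under Mrpl12, rose by 0.23 ± 0.07 and 0.36 ± 0.08, less than Mrpl12 itself by the fitted values, and this difference was not tested.

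The members that fell with LPS were Mrpl34, Mrpl49, Mrps16, Mrpl18, Mrps35, Mrps25, Mrpl33, Mrpl43 and Mrpl28. Mrpl34 had 27.2, 25.1, 22.8 and 23.0 CPM in unstimulated libraries and 14.5, 15.4, 15.6 and 15.5 CPM with LPS. It was lower in all 4 LPS libraries than in any unstimulated one (log2 fold change -0.68 ± 0.08, edgeR adjusted p = 0.000106). Mrps16, in which mutations cause a respiratory chain disorder, had 32.6, 26.6, 38.9 and 41.3 CPM and then 21.4, 22.5, 22.0 and 22.0 CPM (log2 fold change -0.67 ± 0.13, edgeR adjusted p = 0.00228), without overlap. Mrpl49 had a log2 fold change of -0.67 ± 0.13, Mrpl18 of -0.64 ± 0.12 and Mrps35 of -0.55 ± 0.11, while the other 4 lay between -0.35 and -0.24. Among genes that share exonic bases with these members, Nr2c2 (with Mrps25) and Syvn1 (with Mrpl49) fell with LPS, with log2 fold changes of -0.65 and -0.42. Twnk (with Mrpl43) and Tcp1 (with Mrpl18) rose by 1.05 and 0.95. The part of shared reads in the falls was not tested. The call of Mrpl43 was lost without unstimulated library 1 or LPS library 1 or 4 (edgeR adjusted p = 0.0595 to 0.0633), and that of Mrpl28 without LPS library 1 (0.0592). Mrpl58, a peptidyl-tRNA hydrolase built into the large subunit, had a log2 fold change of -0.02 ± 0.10 and passed the test in neither direction, and the same was true of Mrps12, a protein of the decoding centre, with 0.16 ± 0.08, of Mrpl41 with 0.17 ± 0.09 and of Mrps36 with 0.00 ± 0.10. Mrps22, a further gene of respiratory chain disease, and Mrps30, which sits in the large subunit despite its symbol, rose by 0.66 ± 0.12 and 0.73 ± 0.10. Without unstimulated libraries 1 and 2 the counts were 50 higher and 12 lower, and without 3 and 4 they were 49 and 9.

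**Figure D2:**
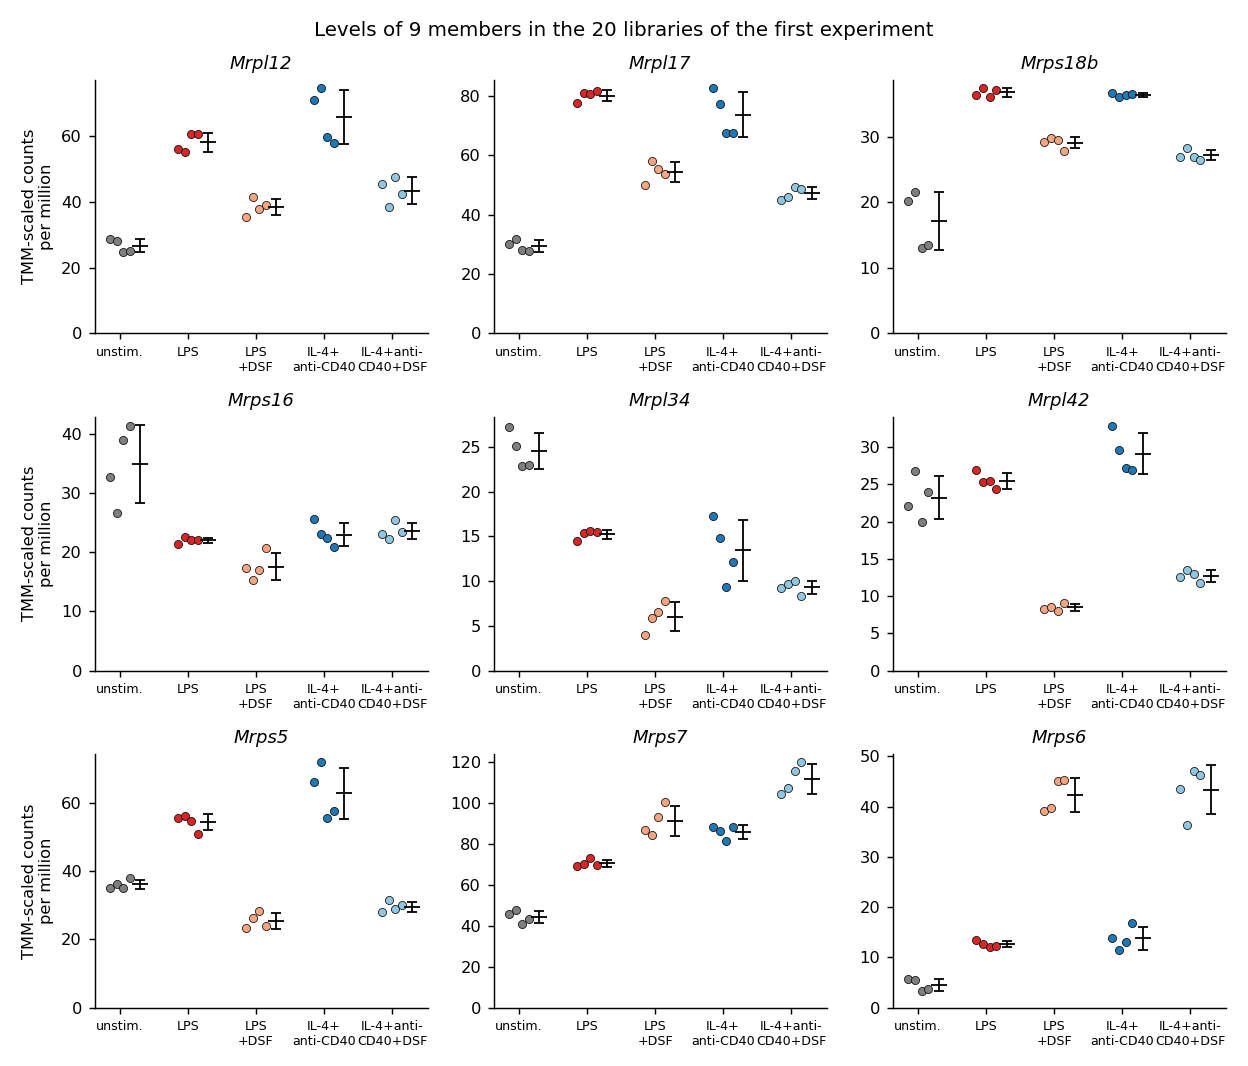
TMM-scaled CPM (y axes) of 9 members, Mrpl12, Mrpl17, Mrps18b, Mrps16, Mrpl34, Mrpl42, Mrps5, Mrps7 and Mrps6, in the 20 libraries of the first experiment, by group (x axes). Mrpl42 lies between 8.04 and 9.06 CPM with LPS+DSF, below every other group, whereas Mrps6 lies between 36.4 and 47.1 CPM in both DSF groups, above every other group.

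IL-4+anti-CD40 also raised most of the set. It was compared with the same unstimulated libraries as LPS, so the effects of the stimuli share them and are given side by side. Of 77 members, 52 were higher and 3 lower, against 30.4% of 14433 genes called higher and 32.1% called lower, with a median of 0.49 for the members and -0.04 for all genes. In the large subunit, 23 of 30 proteins with a bacterial homologue were higher and 1 lower (median 0.55), and 13 of 20 specific to mitochondria were higher and 1 lower (0.44). In the small subunit, the counts were 11 higher and 1 lower of 16 (0.47), and 5 of 10 were higher (0.32). With total counts, 41 were higher and 7 lower. Without IL-4+anti-CD40 libraries 1 and 2, which had the larger sums, 42 were higher and 5 lower, and without libraries 3 and 4 the counts were 55 and 1. Every stimulated library lay above every unstimulated one for 47 members and below for 6, against 27.8% and 32.3% of all genes tested.

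Mrpl17 had 82.7, 77.2, 67.6 and 67.4 CPM with IL-4+anti-CD40, 2.60-fold above the unstimulated mean (log2 fold change 1.38 ± 0.10, edgeR adjusted p = 7.68e-06). Mrpl12 had 70.8, 74.5, 59.8 and 57.8 CPM (log2 fold change 1.36 ± 0.11, edgeR adjusted p = 1.59e-05). Neither overlapped with the unstimulated libraries, and in both genes libraries 3 and 4 were the lower ones. Mrpl19, Mrps18b, Mrps28, Mrpl15, Mrps27, Mrps2 and Mrpl50 had log2 fold changes of 1.17 ± 0.11, 1.14 ± 0.17, 1.08 ± 0.11, 1.06 ± 0.14, 1.05 ± 0.11, 1.05 ± 0.10 and 1.01 ± 0.11. Mrpl34 fell to 17.3, 14.9, 9.36 and 12.2 CPM (log2 fold change -0.81 ± 0.18, edgeR adjusted p = 0.00403), while Mrps16 fell with -0.55 ± 0.15 and Mrpl49 with -0.55 ± 0.14, all without overlap. Mrps22 and Mrps30 rose by 0.83 ± 0.13 and 0.70 ± 0.11, Mrpl10, Mrpl11 and Mrpl41 by 0.35 ± 0.09, 0.55 ± 0.13 and 0.49 ± 0.11, and Mrps12 by 0.32 ± 0.10, a call lost without IL-4+anti-CD40 library 1 or 2 (edgeR adjusted p = 0.0557 and 0.0559). Mrpl58 and Mrps36 had 0.08 ± 0.11 and 0.21 ± 0.12 and passed the test in neither direction.

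The 2 stimuli were also compared directly. With LPS, 4 members were higher and 9 lower than with IL-4+anti-CD40, against 22.3% of 14078 genes called higher and 17.3% called lower, with a median of -0.09. This comparison depended on the scaling and on single libraries. With total counts 2 were higher and 37 lower. Without IL-4+anti-CD40 libraries 1 and 2 the counts were 9 higher and 2 lower, and without libraries 3 and 4 they were 4 and 37. Leaving out 1 library at a time gave 4 to 5 higher and 1 to 12 lower, with 1 lower without IL-4+anti-CD40 library 1, 2 without LPS library 1 or 2, 3 without LPS library 4 and 4 without IL-4+anti-CD40 library 2. The largest difference was in Mrpl30, the counterpart of bacterial L30. It had 45.7, 40.9, 47.4 and 53.7 CPM in unstimulated libraries, 124, 125, 129 and 122 CPM with LPS and 57.0, 60.6, 53.3 and 56.4 CPM with IL-4+anti-CD40. The LPS libraries lay far above both other groups, and the difference between the stimuli was 2.21-fold (log2 fold change 1.14 ± 0.05, edgeR adjusted p = 9.17e-09). Mrpl39, Mrpl22 and Mrpl16 were higher with LPS by 0.34 ± 0.07, 0.30 ± 0.08 and 0.26 ± 0.06. Mrps26, Mrps7, Mrps28, Mrpl18 and Mrpl41 were lower, with values from -0.33 to -0.26. The call was lost without any 1 of 5 of the 8 libraries for Mrps26 and Mrps28, of 4 for Mrpl41 and of 1 for Mrpl18, IL-4+anti-CD40 library 1.

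DSF lowered most of the set in LPS-stimulated cells. Of 77 members, 61 were lower with LPS+DSF than with LPS and 5 were higher, against 36.0% of all 14154 genes called lower and 35.1% called higher. The median log2 fold change was -0.50 for the members and 0.00 for all genes. The falls ran through every class. In the large subunit 23 of 30 proteins with a bacterial homologue (median -0.40) and 16 of 20 specific to mitochondria (-0.55) were lower, and in the small subunit 12 of 16 (-0.44) and 9 of 10 (-0.63). Of the 45 members that share no exonic bases with another gene, 39 were lower and 2 higher. Every LPS+DSF library lay below every LPS library for 61 members and above for 4, against 33.8% and 30.3% of all genes tested. The B cell markers summed to 3141 to 3266 CPM with LPS and 2576 to 2807 CPM with LPS+DSF, and the T cell markers to 6.05 to 7.12 CPM and 14.1 to 16.96 CPM. The NK cell markers summed to 5.91 to 6.37 CPM and 4.31 to 4.98 CPM, the neutrophil markers to 15.97 to 18.3 CPM and 19.9 to 22.9 CPM, the myeloid markers to 115 to 130 CPM and 132 to 138 CPM, and the erythroid markers to 1.75 to 3.03 CPM and 3.09 to 4.13 CPM. Their part in these results was not tested.

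The largest fall was that of Mrpl42, a large subunit protein specific to mitochondria. It had 26.9, 25.3, 25.4 and 24.3 CPM with LPS and 8.25, 8.56, 8.04 and 9.06 CPM with LPS+DSF, and 22.1, 26.8, 19.9 and 24.0 CPM in unstimulated cells. The LPS+DSF libraries lay below both other groups, 2.97-fold under the LPS level (log2 fold change -1.57 ± 0.08, edgeR adjusted p = 7.21e-15). Mrpl34 fell from the LPS values given above to 3.94, 5.88, 6.50 and 7.82 CPM (log2 fold change -1.32 ± 0.13, edgeR adjusted p = 1.26e-09), without overlap. Mrps35, specific to mitochondria, had 14.1, 18.2, 14.9 and 17.4 CPM with LPS and 6.07, 6.74, 5.47 and 8.21 CPM with LPS+DSF (log2 fold change -1.27 ± 0.12, edgeR adjusted p = 5.85e-10). Its groups were separate, and both were below the unstimulated libraries at 23.7, 21.5, 25.03 and 24.8 CPM. Mrps5, the counterpart of bacterial S5 near the entry of the messenger RNA channel, had 55.5, 56.1, 54.6 and 50.8 CPM and then 23.3, 26.3, 28.4 and 23.8 CPM (log2 fold change -1.08 ± 0.06, edgeR adjusted p = 1.17e-13). Mrpl36, the counterpart of bacterial L36, had 35.3, 39.3, 37.6 and 38.4 CPM and then 15.7, 20.6, 15.4 and 16.4 CPM (log2 fold change -1.13 ± 0.08, edgeR adjusted p = 2.91e-12). Neither gene's groups overlapped. Mrpl55, Mrps26, Mrpl2, Mrps15 and Mrpl40 fell, with log2 fold changes of -1.23 ± 0.10, -1.11 ± 0.08, -1.04 ± 0.07, -0.95 ± 0.08 and -0.94 ± 0.08. Mrpl2 is the counterpart of bacterial L2, which lies by the peptidyl transferase centre.

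The stalk proteins fell as well, Mrpl12 from the LPS values above to 35.4, 41.3, 37.8 and 39.0 CPM (log2 fold change -0.58 ± 0.06, edgeR adjusted p = 1.27e-09), Mrpl11 with -0.56 ± 0.08 and Mrpl10 with -0.33 ± 0.06. Mrps22, Mrpl41, Mrps12 and Mrps30 fell, with log2 fold changes of -0.93 ± 0.08, -0.84 ± 0.09, -0.60 ± 0.10 and -0.59 ± 0.08. Mrps16 and Mrps18b fell, with log2 fold changes of -0.31 ± 0.08 and -0.32 ± 0.06, and Mrps36 with -0.56 ± 0.11. Mrpl58 had -0.17 ± 0.08 and did not pass the test (edgeR adjusted p = 0.0556).

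With IL-4+anti-CD40, 55 of 77 members were lower with DSF and 6 were higher, against 31.6% of 14275 genes called lower and 30.1% called higher, with a median of -0.43 for the members and -0.02 for all genes. By class, 21 of 30 (median -0.36) and 15 of 20 (-0.43) large subunit proteins were lower, and 10 of 16 (-0.32) and 8 of 10 (-0.62) small subunit proteins. Without IL-4+anti-CD40 libraries 1 and 2, 40 were lower and 6 higher, and without libraries 3 and 4 the counts were 57 and 4. Every DSF library lay below every library without it for 46 members and above for 7, against 26.5% and 30.6% of all genes tested. The B cell markers summed to 3697 to 4061 CPM without DSF and 3235 to 3392 CPM with it, and the T cell markers to 5.46 to 8.03 CPM and 12.3 to 13.9 CPM. The myeloid markers summed to 166 to 193 CPM and 204 to 280.2 CPM, the neutrophil markers to 11.6 to 14.1 CPM and 15.5 to 18.4 CPM, the erythroid markers to 1.71 to 2.20 CPM and 3.05 to 4.27 CPM, and the NK cell markers to 3.43 to 4.22 CPM and 3.54 to 4.19 CPM. Apart from the NK cell markers, no list overlapped between the groups, and their part in these results was not tested. The members sharing no exonic bases had 34 of 45 lower and 2 higher.

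Mrpl42 fell from 32.8, 29.5, 27.2 and 26.9 CPM to 12.5, 13.5, 12.96 and 11.7 CPM (log2 fold change -1.26 ± 0.09, edgeR adjusted p = 1.42e-06), and again no library overlapped. Mrps5 fell from 66.0, 71.8, 55.5 and 57.6 CPM to 27.9, 31.4, 28.8 and 30.05 CPM (log2 fold change -1.15 ± 0.09, edgeR adjusted p = 1.84e-06), also without overlap. Mrpl2, Mrps35, Mrpl36, Mrps26, Mrpl19, Mrpl37, Mrpl57 and Mrpl55 fell, with log2 fold changes of -0.98 ± 0.08, -0.97 ± 0.11, -0.87 ± 0.11, -0.85 ± 0.12, -0.81 ± 0.11, -0.78 ± 0.07, -0.76 ± 0.11 and -0.75 ± 0.13. Of these, Mrpl19 shares exonic bases with Gcfc2, which fell with DSF as well, with log2 fold changes of -1.20 here and -1.54 with LPS, and the part of shared reads in its fall was not tested. Mrpl12 fell to 45.4, 38.3, 47.4 and 42.5 CPM (log2 fold change -0.66 ± 0.10, edgeR adjusted p = 0.000126). Mrpl10, Mrpl11, Mrpl41, Mrps12, Mrps22, Mrps30 and Mrps18b fell, with log2 fold changes of -0.25 ± 0.08, -0.50 ± 0.11, -0.59 ± 0.09, -0.29 ± 0.10, -0.75 ± 0.11, -0.47 ± 0.08 and -0.48 ± 0.06, and Mrps36 with -0.26 ± 0.09. The call of Mrps36 was lost without any 1 of 6 of the 8 libraries (edgeR adjusted p = 0.0523 to 0.133) and that of Mrps12 without any 1 of 4, IL-4+anti-CD40 library 1 or 2 or IL-4+anti-CD40+DSF library 1 or 2 (0.0746 to 0.096). Mrps16 and Mrpl58, with -0.03 ± 0.08 and 0.00 ± 0.09, did not pass the test.

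**Figure D3:**
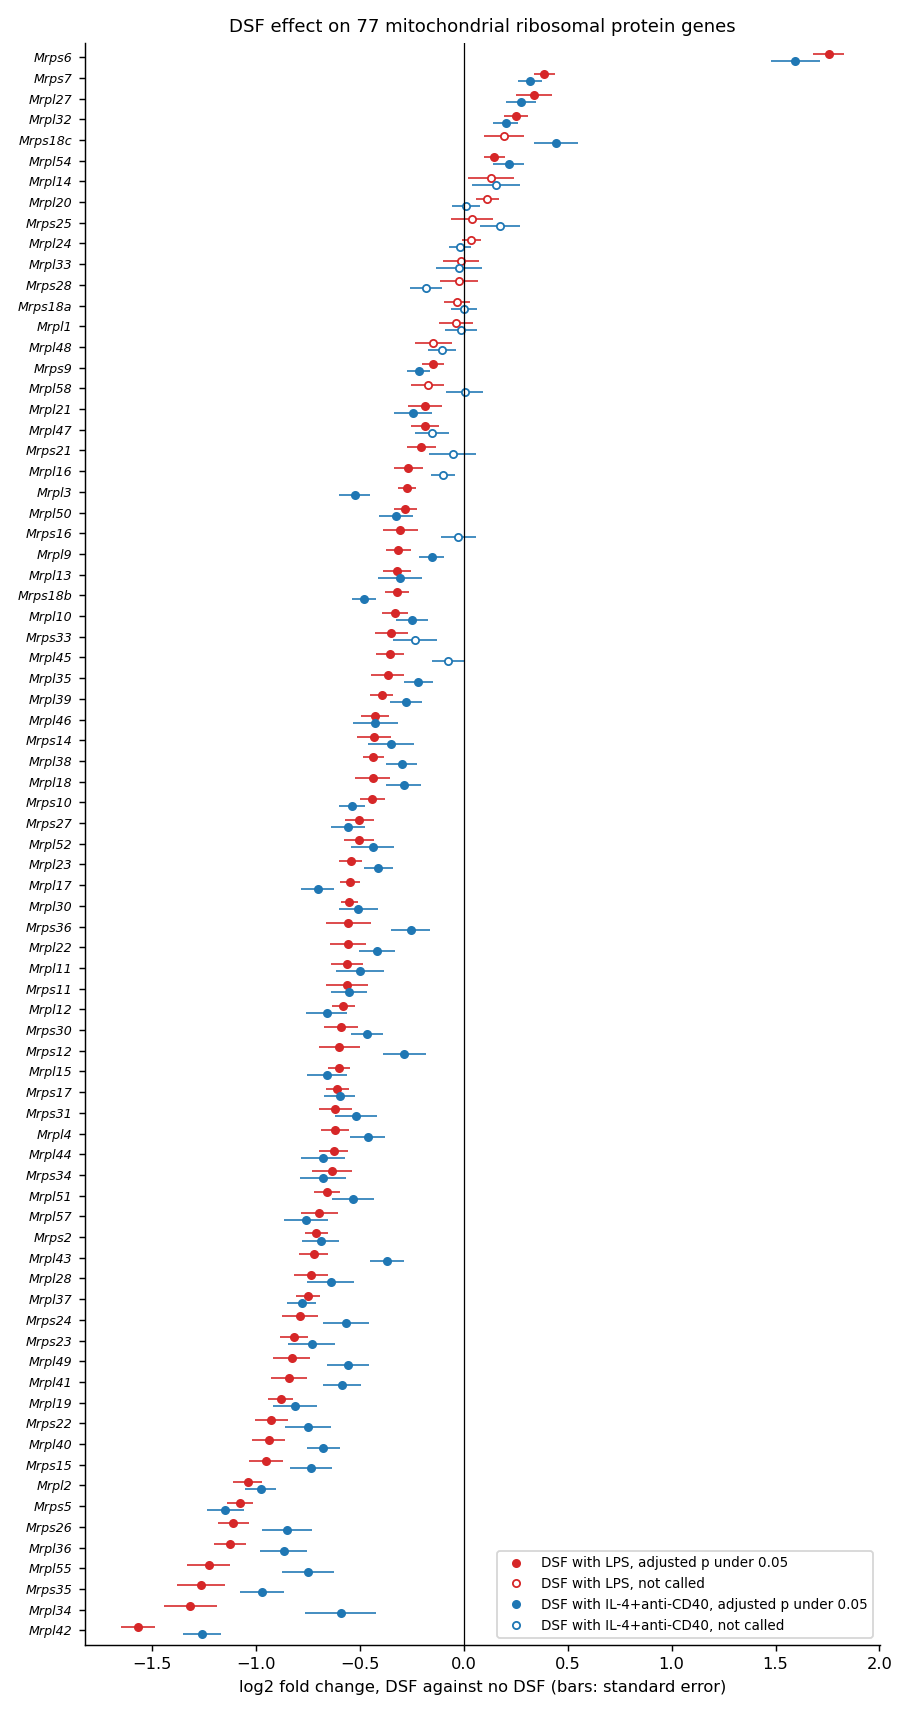
Log2 fold change ± SE of each of the 77 members tested with DSF (x axis) in LPS-stimulated and in IL-4+anti-CD40-stimulated cells, with members ordered along the y axis and filled points passing the test. Of the members, 61 fell under LPS and 55 under IL-4+anti-CD40, and Mrps6 rose by 1.76 and 1.60.

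The DSF effects in the 2 stimuli rest on separate libraries and could be set against each other. All 55 members that were lower with IL-4+anti-CD40 were among the 61 lower with LPS (100% and 90.2% of the lists), and the 5 that were higher with LPS, Mrps6, Mrps7, Mrpl27, Mrpl32 and Mrpl54, were among the 6 higher with IL-4+anti-CD40 (100% and 83.3%). Over all genes tested in both, 84.9% of those lower with IL-4+anti-CD40 were also lower with LPS, and 72.7% of those higher with LPS were also higher with IL-4+anti-CD40. None was called in opposite directions. When the difference itself was tested, 2 members had a more negative effect with LPS and 0 a less negative one by edgeR, against 6.96% and 7.92% of 15130 genes, and DESeq2 gave 3 and 0. At an unadjusted edgeR p under 0.05, 8 members had a more negative and 2 a less negative effect with LPS, against 13.0% and 15.4% of the genes. The 2 members were Mrpl34, with a difference of -0.73 ± 0.24 (edgeR adjusted p = 0.0463), and Mrpl43, with -0.36 ± 0.11 (edgeR adjusted p = 0.0393). The call of Mrpl34 was lost without any 1 of 12 of the 16 libraries (edgeR adjusted p = 0.0589 to 0.0998) and that of Mrpl43 without any 1 of 9 (0.0536 to 0.0854). With the replicate block neither passed. Mrpl34 had 9.18, 9.63, 10.03 and 8.35 CPM with IL-4+anti-CD40+DSF, above the LPS+DSF values. Of the 46 members raised by LPS, DSF lowered 33 with IL-4+anti-CD40 (71.7%), against 55 of all 77 tested (71.4%), and of the 52 raised by IL-4+anti-CD40 it lowered 42 with LPS (80.8%), against 61 of 77 (79.2%).

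The largest rise with DSF was that of Mrps6, the counterpart of bacterial S6 (chr16:92058270-92112227, plus strand, mm10). It had 5.67, 5.53, 3.27 and 3.69 CPM in unstimulated libraries, 13.4, 12.7, 12.2 and 12.3 CPM with LPS and 39.1, 39.7, 45.0 and 45.4 CPM with LPS+DSF. The 3 groups did not overlap, and DSF raised the LPS level 3.38-fold (log2 fold change 1.76 ± 0.07, edgeR adjusted p = 6.73e-17). With IL-4+anti-CD40 it had 13.9, 11.4, 12.98 and 16.8 CPM, and with DSF 43.5, 36.4, 47.1 and 46.3 CPM (log2 fold change 1.60 ± 0.12, edgeR adjusted p = 1.51e-06). The stimuli alone raised it by 1.48 ± 0.19 and 1.65 ± 0.21. In the annotation, 159 of its exonic bases (10.4%) are shared with Slc5a3, the sodium/myo-inositol cotransporter gene on the same strand, and 305 (19.9%) with AC144408.3, which had 0 to 3 counts. Slc5a3 rose too, from 7.002 to 9.28 CPM with LPS to 34.7 to 40.5 CPM with LPS+DSF, and from 11.4 to 19.2 CPM with IL-4+anti-CD40 to 49.7 to 54.4 CPM with DSF. Reads that cross between the 2 genes were not examined here, and their part in the rise of Mrps6 was not tested.

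Mrps7, the counterpart of bacterial S7 in the head of the small subunit, had 45.7, 47.7, 41.1 and 43.3 CPM in unstimulated libraries, 69.3, 70.1, 73.3 and 69.9 CPM with LPS and 86.8, 84.4, 93.5 and 100.4 CPM with LPS+DSF. The DSF libraries were the highest (log2 fold change 0.39 ± 0.05, edgeR adjusted p = 1.94e-07). With IL-4+anti-CD40 it rose from 88.4, 86.3, 81.3 and 88.5 CPM to 104, 107, 116 and 120.1 CPM with DSF (log2 fold change 0.32 ± 0.06, edgeR adjusted p = 0.000634), also without overlap. Mrpl27, whose bacterial counterpart reaches into the peptidyl transferase centre, rose by 0.34 ± 0.09 and 0.28 ± 0.07, and Mrpl32 by 0.25 ± 0.06 and 0.20 ± 0.06. Mrpl54 rose by 0.15 ± 0.05 and 0.22 ± 0.08, and Mrps18c, with IL-4+anti-CD40, by 0.44 ± 0.11. The call of Mrpl54 was lost without any 1 of 4 of the 8 libraries with LPS (edgeR adjusted p = 0.0563 to 0.099) and of 3 of the 8 with IL-4+anti-CD40 (0.0655 to 0.0781). With libraries scaled by total counts, Mrps6, Mrps7 and, with IL-4+anti-CD40, Mrps18c still passed the test, Mrpl27 and Mrpl32 no longer passed, and Mrpl54 turned to -0.062 with LPS and no longer passed with IL-4+anti-CD40.

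Stimulated cells with DSF were also set against unstimulated cells. With LPS+DSF, 27 members were higher and 34 lower than in unstimulated cells, against 34.3% and 37.3% of 14663 genes, with a median of -0.14. With total counts 46 were lower and 8 higher. In cells given IL-4+anti-CD40+DSF, 32 were higher and 20 lower, against 33.4% and 35.3% of 14678 genes, with a median of 0.09, and with total counts 16 were higher and 37 lower. The spread among members was wide. Mrps6 was the highest with LPS+DSF, at 3.21 ± 0.19, and Mrps7, Mrpl32, Mrpl17, Mrps18b and Mrpl12 stayed above the unstimulated level by 1.03 ± 0.08, 0.98 ± 0.08, 0.87 ± 0.07, 0.76 ± 0.17 and 0.52 ± 0.08. Mrpl34, Mrps35, Mrpl49, Mrpl42 and Mrps26 were below it, with -2.03 ± 0.18, -1.85 ± 0.13, -1.52 ± 0.12, -1.46 ± 0.11 and -1.43 ± 0.13. With IL-4+anti-CD40+DSF the same genes had -1.40 ± 0.10, -1.24 ± 0.09, -1.10 ± 0.12, -0.87 ± 0.11 and -0.74 ± 0.12. Without unstimulated libraries 1 and 2 the counts with LPS+DSF were 31 higher and 37 lower, and without 3 and 4 they were 22 and 38.

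Other genes of mitochondrial gene expression were read from lists of their own. For reference, the shares of all genes called higher and lower were 29.6% and 33.3% under LPS and 30.4% and 32.1% under IL-4+anti-CD40. With DSF, the shares lower and higher were 36.0% and 35.1% in LPS and 31.6% and 30.1% in IL-4+anti-CD40. Of 5 ribosomal proteins with other symbols, 4 were higher with each stimulus, and DSF lowered 3 and raised 1 in LPS and lowered 2 in IL-4+anti-CD40. Gadd45gip1, a large subunit protein, fell, with log2 fold changes of -0.85 ± 0.10 under LPS and -0.90 ± 0.12 under IL-4+anti-CD40, and Ptcd3, a small subunit protein, with -0.38 ± 0.05 and -0.57 ± 0.06. Of 12 mitochondrial translation factors, 5 were higher and 5 lower under LPS and 5 and 3 under IL-4+anti-CD40, whereas with DSF 9 were lower in either stimulus, with medians of -0.57 and -0.39. Tsfm, an elongation factor, fell, with log2 fold changes of -1.37 ± 0.09 and -1.29 ± 0.12, Taco1, a translational activator of a respiratory chain subunit, with -1.38 ± 0.12 and -1.06 ± 0.15, and Mtfmt, which formylates the initiator transfer RNA, with -1.07 ± 0.08 and -0.92 ± 0.10. Of 26 genes of ribosome assembly and ribosomal RNA modification, LPS raised 10 and lowered 7, IL-4+anti-CD40 raised 14 and lowered 5, and DSF lowered 21 and raised 3 in LPS and lowered 19 and raised 1 in IL-4+anti-CD40. Ddx28, an RNA helicase of large subunit assembly, fell, with log2 fold changes of -1.75 ± 0.10 and -1.25 ± 0.13, and Noa1, a GTPase, with -1.20 ± 0.07 and -1.18 ± 0.10. Of 11 genes of mitochondrial transcription and RNA stability, 8 were higher and 1 lower with either stimulus, and with DSF 9 and 8 were lower. Elac2, which cuts the ends of mitochondrial transfer RNAs, fell, with log2 fold changes of -1.40 ± 0.05 and -1.34 ± 0.09, and Polrmt, the mitochondrial RNA polymerase, with -0.87 ± 0.06 and -0.78 ± 0.06.

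Of the 10 nuclear regulators of mitochondrial genes, 5 were higher and 4 lower under LPS and 5 and 2 under IL-4+anti-CD40. Over all genes, 29.6% were higher and 33.3% lower under LPS, and 30.4% and 32.1% under IL-4+anti-CD40. With DSF 9 were tested, of which 6 were lower and 2 higher in LPS and 8 were lower in IL-4+anti-CD40. The shares of all genes lower and higher with DSF were 36.0% and 35.1% in LPS and 31.6% and 30.1% in IL-4+anti-CD40. Myc, a transcription factor that drives growth, rose by 3.65 ± 0.18 under LPS and 2.41 ± 0.18 under IL-4+anti-CD40 and fell with DSF, with log2 fold changes of -0.44 ± 0.04 and -0.63 ± 0.07. Ppargc1b, a coactivator, fell, with log2 fold changes of -0.81 ± 0.24 and -1.72 ± 0.22, and Esrra, its partner receptor, with -0.48 ± 0.07 and -0.63 ± 0.07. Gabpa, an ETS factor, fell, with log2 fold changes of -0.19 ± 0.04 and -0.22 ± 0.05. Cytosolic ribosomal proteins, the nearest set in function, gave other counts. Of 79 tested, 5 were higher and 1 lower under LPS and 5 and 8 under IL-4+anti-CD40, with medians of -0.04 and -0.08, whereas with DSF 71 and 66 were higher and 2 lower in each, with medians of 0.25 and 0.35. The DSF counts of this set depended on the scaling. With total counts, 15 were higher and 8 lower with DSF in LPS, and 46 and 4 with DSF in IL-4+anti-CD40. The mitochondrial set then had 2 higher and 68 lower with DSF in LPS, and 3 and 62 with DSF in IL-4+anti-CD40. No test between the sets was made.

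**Figure D4:**
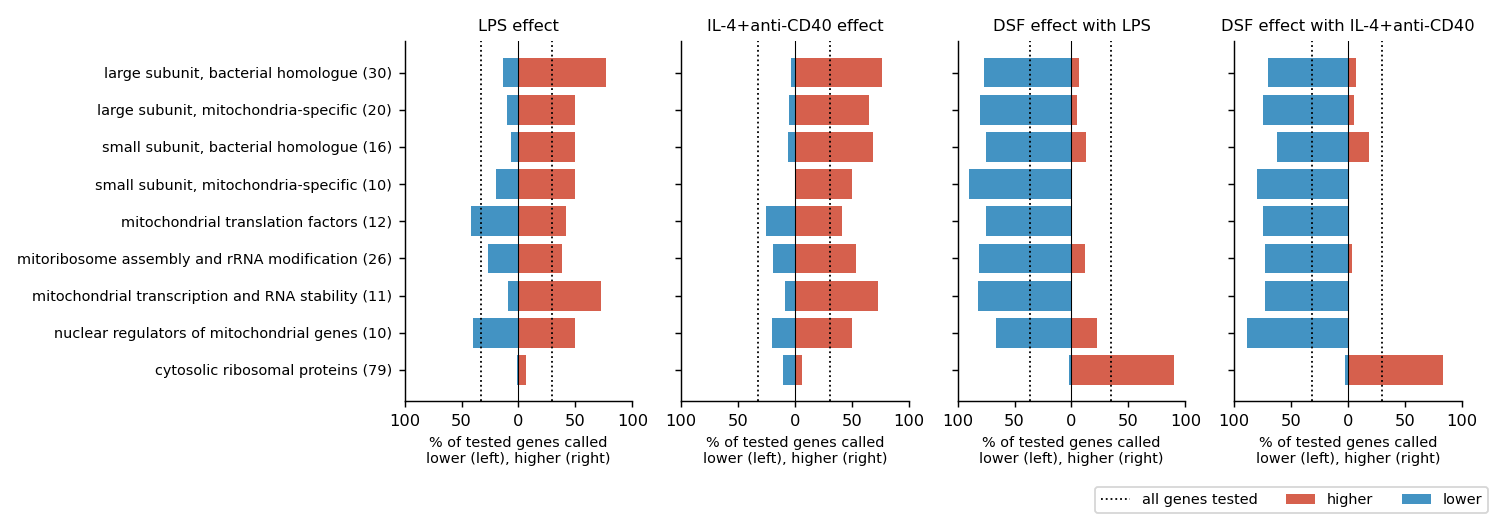
Percentage of the tested genes of each list called higher (right, red) or lower (left, blue) in the 4 main comparisons (panels), with the number tested with LPS in brackets and dotted lines at the percentages over all genes tested. The bars of the mitochondrial ribosomal protein classes lie to the right with the stimuli and to the left with DSF, where the cytosolic ribosomal proteins lie to the right.

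The members were also split by promoter letters. Of the 37 tested members with an ETS, NRF1 or YY1 match, 29 were lower and 3 higher with DSF in LPS (median -0.44), and of the 31 with none, 25 were lower and 1 higher (-0.55). With IL-4+anti-CD40 the counts were 26 and 4 of 37 (-0.37) and 22 and 1 of 31 (-0.47). With LPS alone 17 of 37 with a match were higher and 6 lower (median 0.23), against 22 and 2 of 31 without one (0.40). With IL-4+anti-CD40 alone the counts were 20 and 3 (0.32) and 25 and 0 (0.54). Over all genes, the shares lower and higher were 36.0% and 35.1% with DSF in LPS and 31.6% and 30.1% with DSF in IL-4+anti-CD40, and the shares higher and lower were 29.6% and 33.3% for LPS and 30.4% and 32.1% for IL-4+anti-CD40. The difference between the splits was not tested.

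The second experiment had 1 library for each condition, so that its values have no replicate check and no test, and members past 1.5-fold were counted. Of the 77 members with a mean of at least 10 counts, 22 were higher with LPS and 2 lower past this fold, against 18.4% and 21.3% of 14275 genes, with a median log2 ratio of 0.38. With IL-4+anti-CD40, 31 were higher and 1 lower, against 21.5% and 24.8%, with a median of 0.47. With DSF in LPS, 61 were lower and 1 higher, against 31.6% and 30.1%, with a median of -1.25. With DSF in IL-4+anti-CD40, 58 were lower and 1 higher, against 31.6% and 32.0%, with a median of -1.07. With ibrutinib in LPS, 1 was lower and 0 higher, against 7.55% and 8.15%. The median was -0.14, against 0.009 for all genes, and 62 of 77 were below 0. With ibrutinib in IL-4+anti-CD40, 0 were lower and 0 higher, against 5.88% and 7.22%. The median was -0.16, against 0.004 for all genes, and 65 of 77 were below 0. The ratio with DSF was below that with ibrutinib in 71 of 77 members in LPS and in 69 of 77 in IL-4+anti-CD40, with median differences of -1.09 and -0.96. The same count over all genes is not given here. The medians of all genes with DSF were -0.04 in LPS and -0.008 in IL-4+anti-CD40. Both drugs were compared with the same stimulated library. The summed level was 2039.8 CPM in unstimulated cells, 2761 CPM with LPS, 1396 CPM with LPS+DSF and 2507 CPM with LPS+ibrutinib, and 2928, 1543 and 2614 CPM with IL-4+anti-CD40, with DSF and with ibrutinib.

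**Figure D5:**
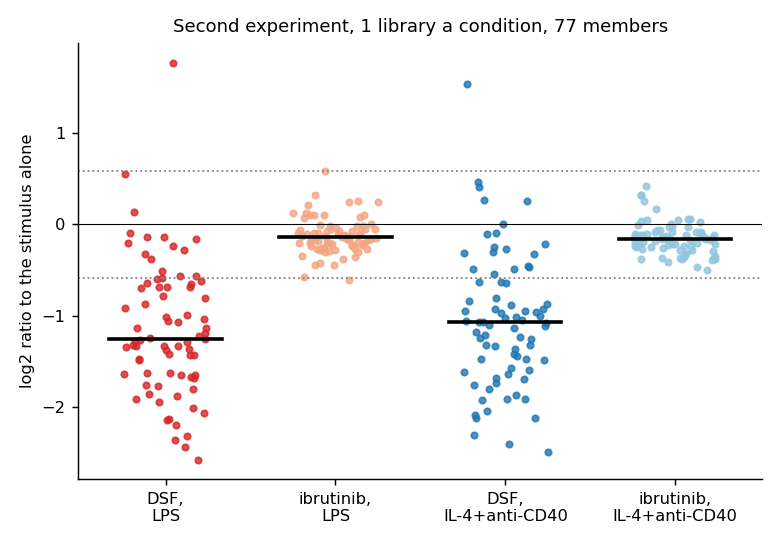
Log2 ratios (y axis) of the 77 members (points, spread sideways for clarity) with DSF or ibrutinib against the same stimulus alone, in the second experiment with 1 library per condition; bars are medians and dotted lines mark 1.5-fold. The medians are -1.25 and -1.07 with DSF and -0.14 and -0.16 with ibrutinib.

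Members called in the first experiment were looked up in the second. All 61 members lowered by DSF with LPS in the first experiment were below 0 in the second (median -1.34), as were all 55 lowered with IL-4+anti-CD40 (median -1.32). Over all genes, 92.04% of those lowered in the first case and 94.5% in the second were below 0. Of the 46 raised by LPS, 45 were above 0, and all 52 raised by IL-4+anti-CD40 were, against 86.6% and 95.6% over all genes. Of the 9 members lowered by LPS, 6 were below 0 and 3 above (median -0.099), against 89.7% of all genes lowered by LPS below 0, and the 3 lowered by IL-4+anti-CD40 were all below 0. Mrpl42 had 26.0 CPM with LPS and 5.62 CPM with LPS+DSF, a log2 ratio of -2.19, and -2.49 with IL-4+anti-CD40. Mrps5 had -1.94 and -2.30, Mrps35 -1.33 and -1.70, Mrpl36 -2.44 and -2.05, and Mrps2 -2.57 and -2.40. These ratios were further from 0 than the fitted values of the first experiment, and the cause was not tested. Mrps6 rose again, from 12.1 to 41.4 CPM (1.77) and from 12.4 to 36.0 CPM (1.53), and Mrps7 had 0.55 and 0.46. The other members that rose with DSF in the first experiment were not above 0 in the second. Mrpl27, Mrpl32 and Mrpl54 had -0.60, -0.14 and -0.33 with LPS. In IL-4+anti-CD40 the values of these genes were -0.31, -0.27 and -0.00049, and Mrps18c had -0.22. Over all genes, 88.5% of those raised by DSF with LPS and 92.6% of those raised with IL-4+anti-CD40 were above 0. Mrpl30, which stood out with LPS in the first experiment, had 70.4 CPM in unstimulated cells, 84.8 CPM with LPS and 89.9 CPM with IL-4+anti-CD40, so that its difference between the stimuli was not seen in the second experiment. Mrpl34 and Mrpl43 had DSF effects that differed between the stimuli in the first experiment. In the second, Mrpl34 had -1.14 with DSF in LPS and -1.03 in IL-4+anti-CD40, and Mrpl43 had -1.36 and -1.21. Both pairs of ratios lay closer together than the fitted effects of the first experiment. The 1 member past 1.5-fold with ibrutinib was Mrpl12, with -0.61 in LPS, and it had -0.37 in IL-4+anti-CD40.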

How the data were processed

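RNA from splenic B cells was purified on poly-T beads and sequenced as 27 libraries, 20 in the first experiment and 7 in the second. Per the labels, reads were aligned to mm10 with HISAT2 2.0.5 and counted with featureCounts 1.5.0-p3, and the authors deposited raw counts per gene and FPKM values. The annotation release and the strand setting were not given in the sources used here. Deposited counts were tested, and deposited FPKM values served only to compare levels between genes. Each comparison was fitted on the 8 libraries of its groups (16 for the difference of the DSF effects) with edgeR 4.0.16 in R 4.3.3, using filterByExpr, TMM scaling and the quasi-likelihood F test, with Benjamini-Hochberg adjustment over all genes tested and a threshold of 0.05. The script was tested on simulated counts in which few genes changed and no libraries of a group stood apart. That test therefore did not cover the broad changes and split groups of these data. In the second experiment, log2 ratios of TMM CPM with a prior count of 2 were computed where a gene's counts averaged 10 or more, with no test.

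Groups came from the sample labels. Named members were up to 10 per direction with the largest change among those that passed the test without overlap between groups in the 4 main comparisons, up to 5 per direction in the comparison of the stimuli and of the DSF effects, the 5 highest and 5 lowest in FPKM, the member that failed the filter, and Mrpl12, Mrpl10, Mrpl11, Mrpl41, Mrpl58, Mrps30, Mrps12, Mrps16, Mrps22, Mrps18b and Mrps36. Up to 4 genes of each other list were named by size of change. Genes with overlapping exons (Slc5a3, AC144408.3, Gcfc2 and the like), and members named again against unstimulated cells, were chosen after their values were seen. The members and lists were chosen with earlier results of these data known. Of the B cell markers, 1 is not reported here and is in no sum. Alternatives were DESeq2 1.42.0, other scalings and filters, 1 fit over all 20 libraries, a replicate block and leaving out libraries. Replicate pairs differed by more than sampling noise in all 30 pairs. Over all genes the chi-square per gene was 2.86 between unstimulated libraries 1 and 2 and 90.7 between 1 and 3. With IL-4+anti-CD40 it was 3.49 between libraries 1 and 2 and 27.2 between 1 and 4. Exonic overlaps were read from GENCODE vM21, whose coordinates equalled those in the file for 73 of 78 members. The promoter windows came from RefSeq, where Mrpl15, Mrps28, Mrpl19, Mrpl13, Mrpl4, Mrpl38, Mrps34, Mrpl54 and Mrps35 had none. The depth of 16049295 to 24619776 counts per library set the counting error only, and not the spread between replicates.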

Additional observations from a re-analysis of the deposited data

Results flagged for a closer look

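By the test of the difference itself, edgeR's quasi-likelihood test with Benjamini-Hochberg adjustment, 2 members had a more negative DSF effect with LPS. Over all 15130 genes, 6.96% were called in this direction. The call of Mrpl34 was lost without any 1 of 12 of the 16 libraries, and that of Mrpl43 without any 1 of 9. For Mrpl34 the effect with LPS minus that with IL-4+anti-CD40 was -0.73 on the log2 scale, and for Mrpl43 it was -0.36. Mrpl43 shares 33.4% of its exonic bases with Twnk on the opposite strand, and Mrpl34 shares none with another gene. With 1 library left out at a time, between 0 and 5 members passed, and 5 did so without IL-4+anti-CD40 library 1.

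Among the named members, 5 had 1 library far from the other 3 of its group by Dixon's test. Mrpl2 was lowest in LPS+DSF library 1, at 18.0 CPM. Mrpl28 was highest in IL-4+anti-CD40+DSF library 3, at 17.003 CPM. Mrpl37 was lowest in unstimulated library 3, at 43.8 CPM, and Mrpl19 in LPS library 4, at 54.9 CPM. Mrpl34 was lowest in LPS library 1, at 14.5 CPM. Over all members and groups, 6 of 385 sets of 4 libraries (1.56%) were marked in this way, and chance marks about 1 in 20.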

How the results depend on the processing

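Of 4072 values of single named members under the alternatives, 3854 kept their direction and side of the threshold, 213 lost significance and 5 turned, all with libraries scaled by total counts in place of TMM: Mrpl54 with DSF in LPS (log2 -0.062), Mrpl15, Mrps18c and Mrps2 with LPS+DSF against unstimulated (-0.13, -0.14 and -0.13) and Mrps30 with IL-4+anti-CD40+DSF against unstimulated (-0.067). Total counts moved the LPS count of lower members to 16, the IL-4+anti-CD40 one to 7, the higher members with DSF to 2 in LPS and 3 in IL-4+anti-CD40, and the more negative DSF effects with LPS to 6. They gave 2 higher and 37 lower for LPS against IL-4+anti-CD40, 8 higher with LPS+DSF against unstimulated, 16 higher and 37 lower in cells with IL-4+anti-CD40+DSF against unstimulated, and 3 lower with IL-4+anti-CD40 in the second experiment. In the first experiment, that scaling moved the median of all genes by -0.41 to -0.05, and the part of this shift in the changed counts was not tested. The lower members with IL-4+anti-CD40 were 6 with at least 10 counts in every library and 7 with all 20 libraries in 1 fit. With any count allowed, 3 members were lower with LPS against IL-4+anti-CD40, and with at least 10 counts 1 less negative DSF effect passed. In the second experiment a 2-fold limit left 7 higher and 0 lower for LPS, 8 and 0 for IL-4+anti-CD40, and 0 lower with ibrutinib in LPS. There a mean of at least 50 counts gave 2 higher with DSF in each stimulus, and any count allowed gave 1 higher and 0 lower with ibrutinib in LPS. The causes of these changes were not tested.

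With 1 library left out at a time, members higher and lower ranged over 43 to 48 and 7 to 10 with LPS, 44 to 53 and 3 to 5 with IL-4+anti-CD40, 4 to 6 and 59 to 62 with DSF in LPS, 5 to 6 and 49 to 56 with DSF in IL-4+anti-CD40, 4 to 5 and 1 to 12 for LPS against IL-4+anti-CD40, 22 to 27 and 29 to 36 with LPS+DSF against unstimulated, 30 to 31 and 18 to 20 with IL-4+anti-CD40+DSF against unstimulated, and 0 to 1 and 0 to 5 for the difference of the DSF effects. The 5 lower with IL-4+anti-CD40 came without unstimulated library 2. For LPS against IL-4+anti-CD40 the lower count was 1 without IL-4+anti-CD40 library 1, 2 without LPS library 1 or 2, 3 without LPS library 4 and 4 without IL-4+anti-CD40 library 2. The difference of the DSF effects called 0 lower without LPS library 2 or 3, LPS+DSF library 1, 2 or 3, IL-4+anti-CD40 library 3 or 4, or IL-4+anti-CD40+DSF library 3. Chosen after seeing the data, leaving out unstimulated libraries 1 and 2 gave 5 lower with IL-4+anti-CD40. Leaving out IL-4+anti-CD40 libraries 1 and 2 also gave 5, and leaving out 3 and 4 gave 1. For LPS against IL-4+anti-CD40 these gave 9 higher and 2 lower, and 37 lower.

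With the replicate block, 5 members were lower with LPS than with IL-4+anti-CD40 and 0 passed for the difference of the DSF effects. Same-numbered libraries did not deviate together (correlations of -0.06 to 0.17, not all over 0.1), so the numbers were not taken as pairs. At this depth a count of 0 for Mrpl53 allows up to 3 counts per library.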
